A study of Mus musculus with 3 samples.

Results

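Oxidative phosphorylation is carried out by 5 protein complexes of the inner mitochondrial membrane. Out of 14363 genes measured, the 81 described here were chosen by the symbols used for nuclear subunits of these complexes. Complex I (NADH dehydrogenase, Nduf genes) and complex II (succinate dehydrogenase, Sdh genes) pass electrons to coenzyme Q, complex III (cytochrome bc1, Uqcr genes) passes them on to cytochrome c, complex IV (cytochrome c oxidase, Cox genes) hands them to oxygen, and complex V (ATP synthase, Atp5 genes) uses the resulting proton gradient to make ATP. Endothelial cells are known for drawing much of their ATP from glycolysis, with mitochondria serving also in signalling and biosynthesis. Several subunits of complex IV exist as a widespread isoform and a second isoform that is restricted to muscle, testis, lung or other tissues.

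The samples were primary endothelial cells from the corpus cavernosum of C57BL/6 mice, grown in medium with serum, heparin and vascular endothelial growth factor A. One group was exposed to high glucose (30 mmol) and transfected with siRNA against Ninj1 (200 pmol), a cell-surface adhesion protein induced after nerve injury, one to high glucose (30 mmol) alone, and one to normal glucose (5 mmol), each for 48 hours. The labels name no control siRNA. Each group was 1 array of RNA pooled over 3 numbered samples, so no difference between arrays had a replicate check and no test was possible.

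Members were chosen by symbol, as Nduf genes of the A, B, C, S and V series, Sdha to Sdhd, Uqcr genes, Cox4 to Cox8 genes and Atp5 genes. Of all mouse gene symbols, 105 matched, of which 83 had a probe that could be named by its accession. Of these, 81 were well above background on all 3 arrays, out of 14363 genes measured in this way. These 81 comprised 37 genes of complex I, 4 of complex II, 8 of complex III, 16 of complex IV and 16 of complex V. Ndufa4 and its relative Ndufa4l2 are counted with complex I by symbol alone, although the Ndufa4 protein is now placed in complex IV. Cox7b2 and Cox8c, isoforms known mainly from testis, had signals of 2.88 and 3.21 on the siRNA-labelled array, 3.59 and 3.67 on the high-glucose-labelled array and 3.76 and 3.94 on the normal-glucose-labelled array, and were not well above background on any of them. The dimmest member kept was Cox8b, with signals of 25.3, 55.5 and 59.0 in the same order of arrays. Of the 22 symbols without a named probe, 4 were protein coding (Atp5g1, Ndufb1, Ndufb4b and Ndufb4c). Since 66.1% of probes could be named, the array may still hold probes for them. The 13 subunits encoded by mitochondrial DNA were not analysed here.

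Here a level is the log2 processed signal minus the 75th percentile of its own array, and a difference is between levels of the same probe on different arrays. That percentile was a signal of 2024 on the siRNA-labelled array, 1729 on the high-glucose-labelled array and 1780 on the normal-glucose-labelled array, and 70.6%, 67.6% and 67.0% of probes were well above background. Repeated spots of 1 probe had a median SD of 0.06, equal to 0.08 for a difference between 2 spots, which covers spot error only. The targeted gene Ninj1 went against the labels, with signals of 25539 on the siRNA-labelled array, 16291 on the high-glucose-labelled array and 20413 on the normal-glucose-labelled array. The group words in the file names also exchange the siRNA-labelled and high-glucose-labelled arrays. For this reason each array is named here by its label alone, and every direction between the siRNA and high-glucose labels turns round if these are exchanged. Fewer cells of a type and less RNA per cell cannot be told apart in such pooled RNA.

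Most subunit genes were bright and differed little between the siRNA-labelled and high-glucose-labelled arrays. Of the 81, 73 (90.1%) were among the brightest 25% of measured genes by mean level and 63 among the brightest 10%, a ranking of signals that also depends on the probes. At least 1.5-fold higher on the siRNA-labelled array were 3 members (3.70%), Cox6a2, Cox7a1 and Ndufb8, beside 13.8% of all measured genes. At least 1.5-fold lower were 2 members (2.47%), Cox8b and Cox6b2, beside 14.7% of all measured genes. Among the 73 members of the brightest 25%, only Ndufb8 was past 1.5-fold, beside 9.69% higher and 9.94% lower among all genes as bright. At 2-fold Cox6a2 was higher and Cox8b lower, beside 5.97% and 7.14%.

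The whole set was shifted slightly above 0 in this comparison under the 75th-percentile scaling. Its median difference was 0.14 and its SD over genes 0.31, beside a median of 0.01 and an SD of 0.74 over all measured genes. Between the quartiles the members spanned 0.00 to 0.24 and all genes -0.33 to 0.33. Above 0 were 60 of 81 members (74.1%), beside 51.2% of all genes and 54.4% of the brightest 25%. The shift depended on the scaling: the median was -0.02 after quantile normalization, with 39 of 81 above 0, and 0.00 after cyclic loess, with 40 above 0.

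**Figure D1:**
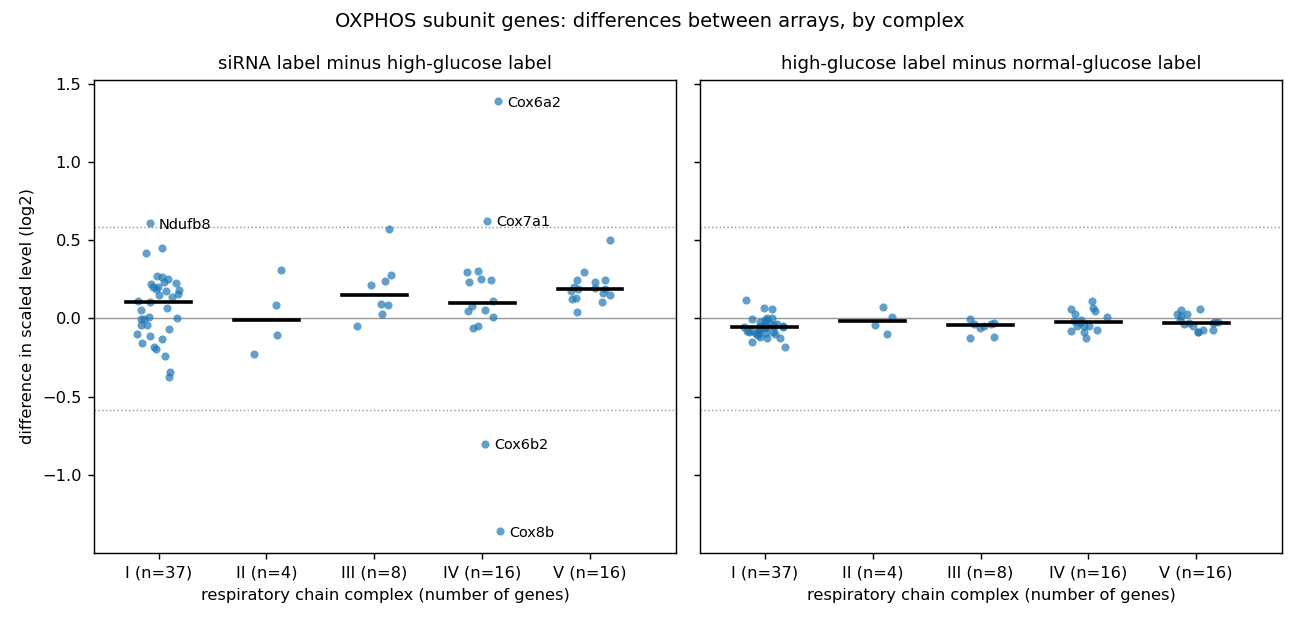
Differences between arrays (log2, vertical axis) for each of the 81 genes, as points grouped by complex I to V, with black bars at the median of each complex and dotted lines at 1.5-fold, for the siRNA label minus the high-glucose label on the left and the high-glucose label minus the normal-glucose label on the right. Complex IV spans -1.36 to 1.39 on the left and complex V 0.04 to 0.50 under the 75th-percentile scaling, while on the right every gene lies between -0.18 and 0.12.

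Complex I genes lay on both sides of 0. Their median difference between the siRNA and high-glucose labels was 0.10, with 23 of 37 above 0, and it was -0.04 under both quantile normalization and cyclic loess, with 16 above 0 under either. Ndufb8, an accessory subunit of the membrane arm, had levels of 4.44 on the siRNA-labelled array, 3.83 on the high-glucose-labelled array and 3.90 on the normal-glucose-labelled array, a difference of 0.61 that stood at 0.49 under both other scalings. It was high on the siRNA-labelled array alone. Ndufa12, an accessory subunit, was 0.45 higher on the siRNA-labelled array, and Ndufv1, which binds NADH and the flavin cofactor, was 0.42 higher. Towards the other end Ndufb10, an accessory subunit of the membrane arm, was -0.38, and Ndufb3, also of the membrane arm, was -0.24. Subunits of the same arm therefore stood at opposite ends, Ndufb8 high and Ndufb10 and Ndufb3 low. Ndufs1, the core subunit with the most iron-sulfur clusters, was at 0.27, and Ndufs8, another core subunit, at 0.01.

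The 4 genes of succinate dehydrogenase lay on both sides of 0. Sdhd, a membrane anchor, had levels of 4.09, 3.78 and 3.88 on the siRNA-labelled, high-glucose-labelled and normal-glucose-labelled arrays, while Sdhc, the other anchor, had 3.10, 3.33 and 3.32. Their differences between the siRNA and high-glucose labels were 0.31 and -0.23, and a second probe of Sdhc gave 0.06. Sdha, the flavoprotein that oxidises succinate, was at -0.10 and Sdhb, the iron-sulfur subunit, at 0.09. The median of the complex was -0.01, and -0.12 and -0.14 under quantile normalization and cyclic loess.

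In complex III 7 of 8 genes were above 0 on the siRNA-labelled array against the high-glucose-labelled array, with a median of 0.15. The median stayed above 0, between 0.04 and 0.22, under every other processing of these arrays, but 4 of 8 genes were above 0 after quantile normalization or cyclic loess. Uqcrq, a small subunit that touches cytochrome b, had levels of 6.33 on the siRNA-labelled array, 5.76 on the high-glucose-labelled array and 5.80 on the normal-glucose-labelled array, a difference of 0.57, and its second probe gave 0.72. Uqcrfs1, the Rieske iron-sulfur protein, was 0.28 higher. Uqcrc2, a core protein, was spotted 10 times and was 0.24 higher, with an SE of 0.014 over spots. That SE covers spot error within the arrays only, and the difference ran from 0.13 to 0.25 over settings. Uqcr11 and Uqcrb, small subunits of the complex, were at 0.03 and 0.09, and other probes of Uqcrb went down to -0.18. Uqcrh, the hinge protein, was at -0.05 by its brightest probe and -0.45 by the other, the widest disagreement between probes of any member in this comparison.

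Complex IV held 4 of the 5 members past 1.5-fold, each a tissue-restricted isoform whose widespread partner differed less. Cox6a2, known from heart and skeletal muscle, had levels of 0.36 on the siRNA-labelled array, -1.03 on the high-glucose-labelled array and -0.98 on the normal-glucose-labelled array. It was 2.62-fold higher on the siRNA-labelled array than on the high-glucose-labelled array. Its widespread partner Cox6a1 had levels of 7.10, 7.16 and 7.29 in the same order and differed by -0.06. Cox7a1, a further muscle isoform, had levels of -0.94, -1.56 and -1.51 in the same order and was 1.54-fold higher, a difference of 0.62 that was 0.57, under 1.5-fold, with normexp. Its partner Cox7a2, the widespread isoform, was 0.24 higher.

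Cox8b and Cox6b2, restricted isoforms as well, were low on the siRNA-labelled array. Cox8b, a muscle and brown fat isoform of rodents, had levels of -6.32 on the siRNA-labelled array, -4.96 on the high-glucose-labelled array and -4.92 on the normal-glucose-labelled array, and was 2.57-fold lower than on the high-glucose-labelled array. Its difference of -1.36 was -0.68 with another background correction (normexp), and it was the dimmest member. Cox6b2, known from testis, had levels of -1.85, -1.04 and -0.96 and was 1.74-fold lower. The widespread partners Cox8a and Cox6b1 were at 0.05 and 0.08. Cox4i2, a lung isoform that is induced by low oxygen, was 0.26 higher and its partner Cox4i1 0.30 higher, against 0.32 and 0.12 after quantile normalization. Ndufa4l2, a hypoxia-induced relative of Ndufa4, was at -0.07 and Ndufa4 at -0.01. Of the 5 members past 1.5-fold only Ndufb8 was bright: Cox6a2, Cox7a1, Cox8b and Cox6b2 were outside the brightest 25% of genes.

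**Figure D2:**
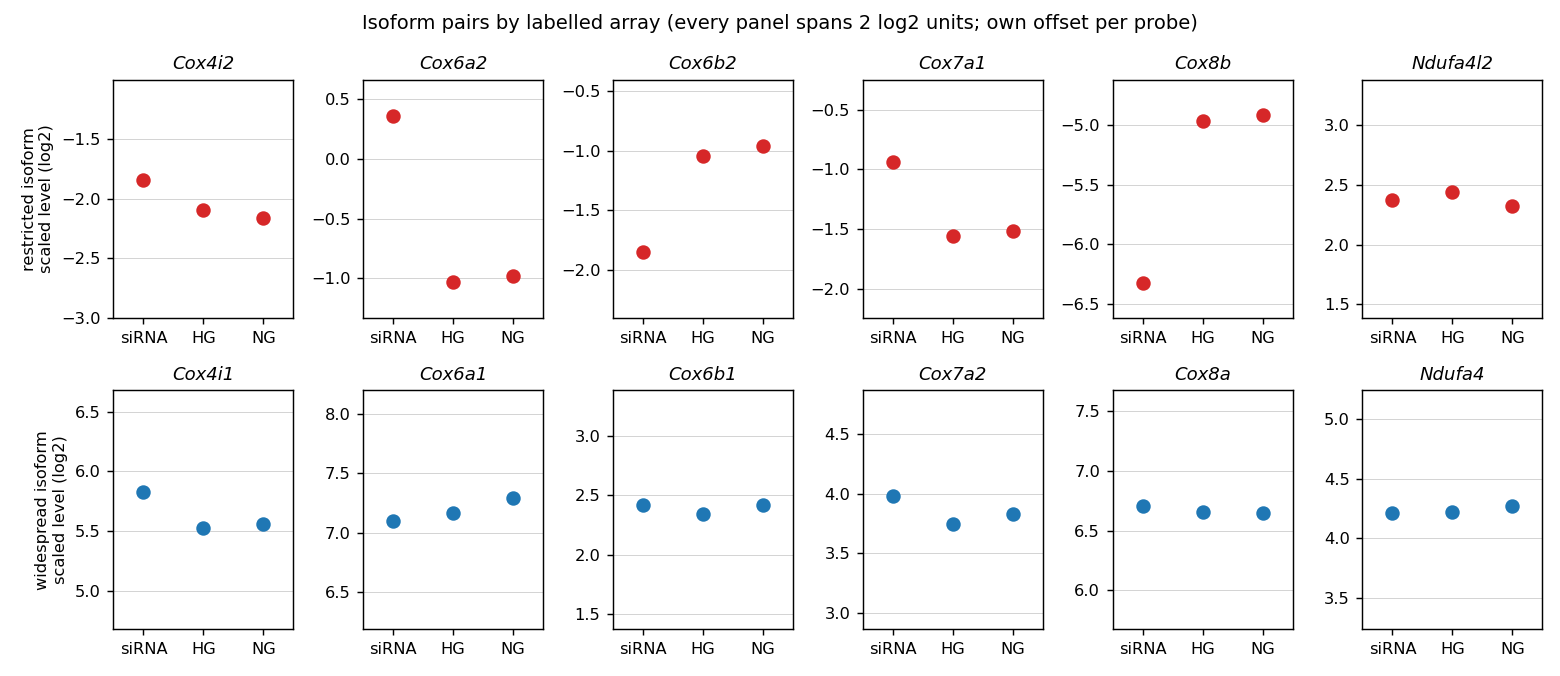
Levels (log2 processed signal minus the 75th percentile of the array, vertical axis) on the siRNA-labelled, high-glucose-labelled (HG) and normal-glucose-labelled (NG) arrays, 1 point an array, for 6 pairs with the restricted isoform above and the widespread one underneath, each panel spanning 2 log2 units. Cox6a2 and Cox7a1 are highest and Cox8b and Cox6b2 lowest on the siRNA-labelled array, whereas the points of Cox6a1, Cox6b1 and Cox8a lie nearly level.

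The remaining complex IV genes differed by less than 1.5-fold between the siRNA and high-glucose labels. Cox5a and Cox5b, subunits next to the catalytic core, were 0.30 and 0.25 higher, Cox6c was at -0.05 and Cox7c at 0.01. The median of the complex was 0.10, with 12 of 16 genes above 0, and turned to -0.01 and -0.02 under quantile normalization and cyclic loess, with 8 above 0 under either.

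Complex V was the most even of the complexes with more than 4 genes. All 16 genes were above 0 on the siRNA-labelled array against the high-glucose-labelled array under the 75th-percentile scaling, with a median of 0.19, a range of 0.04 to 0.50 and an SD of 0.10 over genes. The median was 0.04 under quantile normalization, with 10 of 16 above 0, and 0.05 under cyclic loess, with 11 above 0. Atp5d, the delta subunit of the central stalk, had levels of 3.93 on the siRNA-labelled array, 3.43 on the high-glucose-labelled array and 3.47 on the normal-glucose-labelled array, and stood highest with a difference of 0.50. Atp5k and Atp5md, small membrane subunits, were 0.29 and 0.25 higher. The catalytic beta subunit Atp5b and its partner in the head, Atp5a1, were at 0.24 and 0.04. Atp5h, of the peripheral stalk, and Atp5l, of the membrane part, were at 0.10 and 0.12, and the 5 probes of Atp5l spanned -0.11 to 0.17. Over settings Atp5h ran from -0.10 to 0.16, Atp5l from -0.06 to 0.14 and Atp5a1 from -0.11 to 0.08.

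Promoters are printed for the restricted isoforms that differed most and have an entry. Those of Cox6a1, Ndufb8, Sdhd and Atp5k are printed as examples of members with motif matches and were chosen for these matches. RefSeq promoters of GRCm38.p6, from 250 bases before to 50 after the start, matched 66 of the 81 genes. Motifs known from nuclear genes of mitochondria were searched on both strands: the NRF1 motif, of 10 letters with 1 left free, the ETS motif CCGGAAG bound by GABP, the YY1 motif AAGATGG and the ERR motif TNAAGGTCA. Capitals mark matches, on either strand, and each sequence runs 5′ to 3′ on the strand of its gene.
Cox7a1: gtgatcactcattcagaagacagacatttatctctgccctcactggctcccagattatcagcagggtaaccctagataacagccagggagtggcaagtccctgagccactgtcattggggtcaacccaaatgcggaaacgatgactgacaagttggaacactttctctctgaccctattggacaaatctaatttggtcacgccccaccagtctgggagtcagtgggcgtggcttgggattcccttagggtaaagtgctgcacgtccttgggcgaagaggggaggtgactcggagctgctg
Cox8b: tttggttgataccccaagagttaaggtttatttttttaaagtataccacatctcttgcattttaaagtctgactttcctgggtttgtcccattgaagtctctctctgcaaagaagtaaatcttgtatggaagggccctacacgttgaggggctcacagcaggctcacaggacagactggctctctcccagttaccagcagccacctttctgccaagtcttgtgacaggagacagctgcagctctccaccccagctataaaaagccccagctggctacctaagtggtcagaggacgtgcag
Cox6b2: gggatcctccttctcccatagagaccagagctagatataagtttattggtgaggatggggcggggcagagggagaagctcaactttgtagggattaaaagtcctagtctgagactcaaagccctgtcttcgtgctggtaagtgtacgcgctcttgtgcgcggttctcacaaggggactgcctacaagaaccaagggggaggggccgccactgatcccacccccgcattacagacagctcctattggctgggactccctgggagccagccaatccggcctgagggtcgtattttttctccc
Cox6a1: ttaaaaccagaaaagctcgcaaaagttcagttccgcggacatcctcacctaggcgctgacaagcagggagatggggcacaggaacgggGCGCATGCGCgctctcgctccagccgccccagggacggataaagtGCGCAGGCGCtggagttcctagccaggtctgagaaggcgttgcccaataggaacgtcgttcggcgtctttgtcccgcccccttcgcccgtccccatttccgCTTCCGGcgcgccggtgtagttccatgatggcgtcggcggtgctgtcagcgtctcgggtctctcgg
Ndufb8: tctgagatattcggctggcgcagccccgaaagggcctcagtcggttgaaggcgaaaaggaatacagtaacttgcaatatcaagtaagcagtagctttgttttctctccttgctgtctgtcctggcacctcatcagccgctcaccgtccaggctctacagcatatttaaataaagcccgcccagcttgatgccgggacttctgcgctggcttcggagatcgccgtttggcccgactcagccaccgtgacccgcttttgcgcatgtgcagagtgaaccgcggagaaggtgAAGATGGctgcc
Sdhd: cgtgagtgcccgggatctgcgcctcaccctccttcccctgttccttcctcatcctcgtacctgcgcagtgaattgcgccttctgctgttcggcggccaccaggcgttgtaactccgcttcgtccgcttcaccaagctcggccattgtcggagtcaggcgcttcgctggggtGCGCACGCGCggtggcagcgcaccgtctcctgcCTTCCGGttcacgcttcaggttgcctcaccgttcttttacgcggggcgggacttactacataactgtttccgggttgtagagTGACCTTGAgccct
Atp5k: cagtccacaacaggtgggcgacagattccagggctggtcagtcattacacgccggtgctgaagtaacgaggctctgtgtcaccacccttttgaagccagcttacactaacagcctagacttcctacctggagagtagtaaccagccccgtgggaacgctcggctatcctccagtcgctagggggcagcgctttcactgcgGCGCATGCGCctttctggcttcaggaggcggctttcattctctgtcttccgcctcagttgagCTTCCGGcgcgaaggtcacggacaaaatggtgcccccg
These are Cox7a1 at chr7:30183921-30184220 on the plus strand, and on the minus strand Cox8b at chr7:140900397-140900696, Cox6b2 at chr7:4753045-4753344, Cox6a1 at chr5:115348909-115349208, Ndufb8 at chr19:44555393-44555692, Sdhd at chr9:50603800-50604099 and Atp5k at chr5:108434350-108434649. No match to the 4 motifs was found in the windows of Cox7a1, Cox8b and Cox6b2. Windows without a match are common, since 59.1% of matched members and 25.1% of protein-coding genes hold at least 1. As the other printed windows were chosen for their matches, the printed sequences show no difference between kinds of gene. Cox6a1 held NRF1 and ETS matches, Ndufb8 a YY1 match just after its start, Sdhd matches to NRF1, ETS and ERR, and Atp5k matches to NRF1 and ETS. The match GCGCATGCGC in Cox6a1 and Atp5k reads as a match on both strands.

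Of the 66 matched members, 17 (25.8%) had the NRF1 motif in at least 1 promoter, beside 7.17% of protein-coding genes. The ETS motif was found for 17 members (25.8%), beside 12.9% of protein-coding genes, the YY1 motif for 11 (16.7%), beside 7.18%, and the ERR motif for 3 (Atp5g3, Ndufb4 and Sdhd, 4.55%), beside 1.19%. Counted over single promoters, of which these members have 71, the NRF1 motif was in 25.4%, beside 4.60% of all promoters, the ETS motif in 23.9%, beside 8.86%, the YY1 motif in 15.5%, beside 6.34%, and the ERR motif in 4.23%, beside 1.28%. At least 1 of the 4 was in 39 members (59.1%), beside 25.1% of protein-coding genes. The median difference between the siRNA and high-glucose labels was 0.13 with the NRF1 motif and 0.12 without it, 0.10 and 0.15 with and without ETS, 0.18 and 0.11 with and without YY1, and 0.15 and 0.12 with and without ERR, which only 3 members hold. A match describes the letters of the window and not a bound site.

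Between the high-glucose-labelled and normal-glucose-labelled arrays no member passed 1.5-fold in either direction, beside 0.592% of all genes higher and 0.48% lower. The members ranged from -0.18 for Ndufa12 to 0.12 for Ndufa4l2, with a median of -0.05 and an SD of 0.06 over genes, close to the spot error of 0.08. Below 0 were 63 of 81. Above 0 were the other 18 (22.2%), beside 43.8% of all genes and 33.4% of the brightest 25%. By complex 5 of 37 genes of complex I were above 0, 2 of 4 of complex II, 0 of 8 of complex III, 6 of 16 of complex IV and 5 of 16 of complex V. After quantile normalization and cyclic loess 23 and 24 of the 81 were above 0, with 8 and 7 in complex I. Complex III held 1 under either and complex IV 6 and 8. The median of complex IV ran from -0.03 to 0.02 over settings. Ndufc2, a subunit of the membrane arm, was -0.15, and Cox5a was 0.11. Of the 22 members with more than 1 probe, 11 had probes of opposite sign in this comparison.

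Between the siRNA-labelled and normal-glucose-labelled arrays, 1 member (Cox6a2, difference 1.34) was at least 1.5-fold higher and 2 (Cox8b, -1.41, and Cox6b2, -0.88) at least 1.5-fold lower, beside 13.2% and 14.7% of all genes. Each pair of the 3 comparisons shares an array, so their values are not independent. Cox7a1 was at 0.58 and Ndufb8 at 0.54, just inside 1.5-fold. The median was 0.10, with 55 of 81 above 0, against -0.04 with 30 above 0 under quantile normalization and -0.03 with 34 above 0 under cyclic loess. All 16 complex V genes were above 0, with a median of 0.15 that turned to -0.01 after quantile normalization, with 7 above 0, and complex I had a median of 0.01. Probes of Atp5l, from -0.13 to 0.17, and of Sdhc, from -0.22 to 0.10, disagreed in sign. Over the 3 arrays, 41 members were highest on the siRNA-labelled array and lowest on the high-glucose-labelled array (50.6%, beside 28.4% of all genes), and 13 were highest on the siRNA label and lowest on normal glucose (16.0%, beside 19.1%). Lowest on the siRNA label were 16 with normal glucose highest (19.8%, beside 24.1%) and 4 with high glucose highest (4.94%, beside 21.3%). The siRNA label lay in the middle for 6 with normal glucose highest (7.41%, beside 3.75%) and for 1, Ndufa4l2, with high glucose highest (1.23%, beside 3.45%). The order depended on the scaling. The first of these groups held 23 members after quantile normalization (28.4%, beside 27.9% of all genes) and 24 after cyclic loess (29.6%, beside 26.1%). Under these scalings its share was thus near that of all genes.

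**Figure D3:**
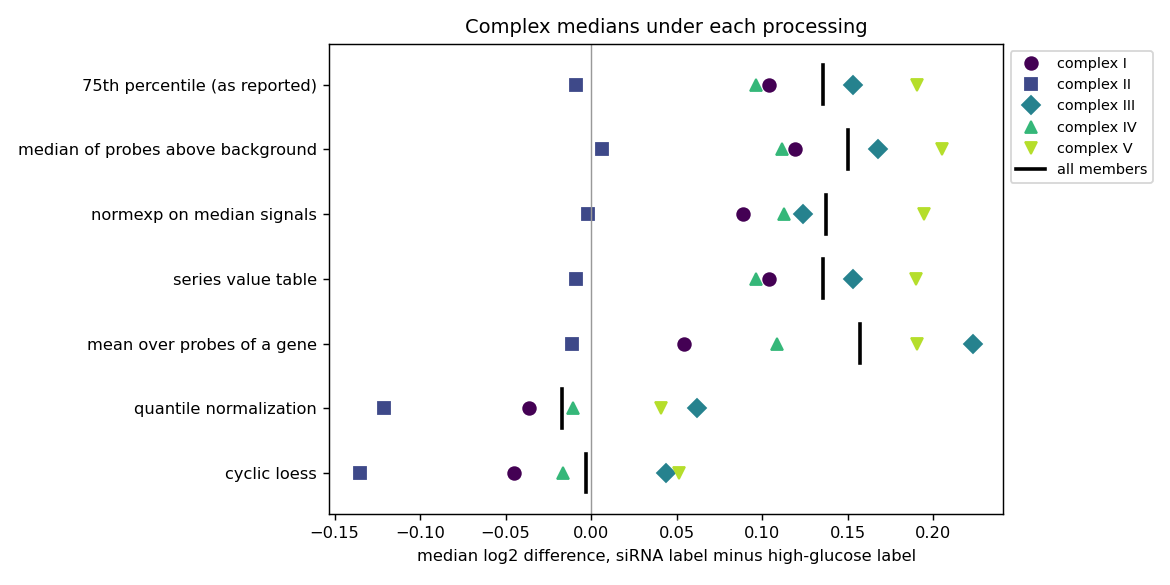
Median differences (log2, horizontal axis) between the siRNA label and the high-glucose label under 7 ways of processing the arrays, with a marker for each complex and a black bar for all 81 members. The bar lies at 0.14 as reported, at -0.02 after quantile normalization and at 0.00 after cyclic loess, and the medians of complexes III and V stay above 0 throughout.

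Other genes of the mitochondrion were counted in the same comparison of siRNA label against high-glucose label, in which 13.8% of all genes were at least 1.5-fold higher and 14.7% lower. Of 43 measured assembly factors, which build the complexes, 3 were at least 1.5-fold higher (6.98%) and 1 lower (2.33%), with a median of 0.06: Nubpl, an iron-sulfur factor of complex I, was 1.00 higher, Cox10, which acts in making the heme of complex IV, 0.78, Ndufaf4 0.69, and Uqcc3, a factor of complex III, was -0.61. Among 14 genes of electron carriers and coenzyme Q synthesis 2 were higher (14.3%) and 0 lower, with a median of 0.04. Cycs, cytochrome c, had levels of 5.06 on the siRNA-labelled array, 4.18 on the high-glucose-labelled array and 4.28 on the normal-glucose-labelled array, and Pdss1, which makes the tail of coenzyme Q, was 1.30 higher. Of 18 TCA cycle genes 1 was higher (5.56%) and 0 lower, Idh3a, a subunit of isocitrate dehydrogenase, with a difference of 0.62 and a list median of 0.19. Of 19 regulators of mitochondrial biogenesis none passed 1.5-fold, with a median of 0.08 and 12 above 0. The coactivators Ppargc1a and Ppargc1b were at 0.21 and 0.41, and Pprc1, Gabpa, Esrra and Nrf1 at -0.39, -0.25, -0.12 and -0.10. Ppargc1b was dim, with signals of 136 on the siRNA-labelled, 87.3 on the high-glucose-labelled and 67.8 on the normal-glucose-labelled array. It was also 0.41 higher on the high-glucose label than on the normal-glucose label.

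The lists of protein import and of mitochondrial translation had higher medians than the subunit genes. So did TCA cycle genes, at 0.19, and cytosolic ribosomal proteins, outside the mitochondrion, at 0.26 (0.05 to 0.27 over settings). Of 23 genes of the outer membrane, import and carriers 6 were at least 1.5-fold higher (26.1%, beside 13.8% of all genes) and 0 lower, with a median of 0.38 that ranged from 0.29 to 0.39 over settings. Timm8a1, Timm50 and Timm10, parts of the import machinery, were 1.30, 1.01 and 0.92 higher, while Slc25a4, the adenine nucleotide carrier, was -0.47. Of 77 mitochondrial ribosomal proteins 5 were higher (6.49%, under the share of all genes) and 0 lower, with a median of 0.25 (0.19 to 0.28 over settings), and Mrpl12 was 0.70 higher. In the comparison of high glucose with normal glucose no gene of these lists passed 1.5-fold, beside 0.592% of all genes higher and 0.48% lower.

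**Figure D4:**
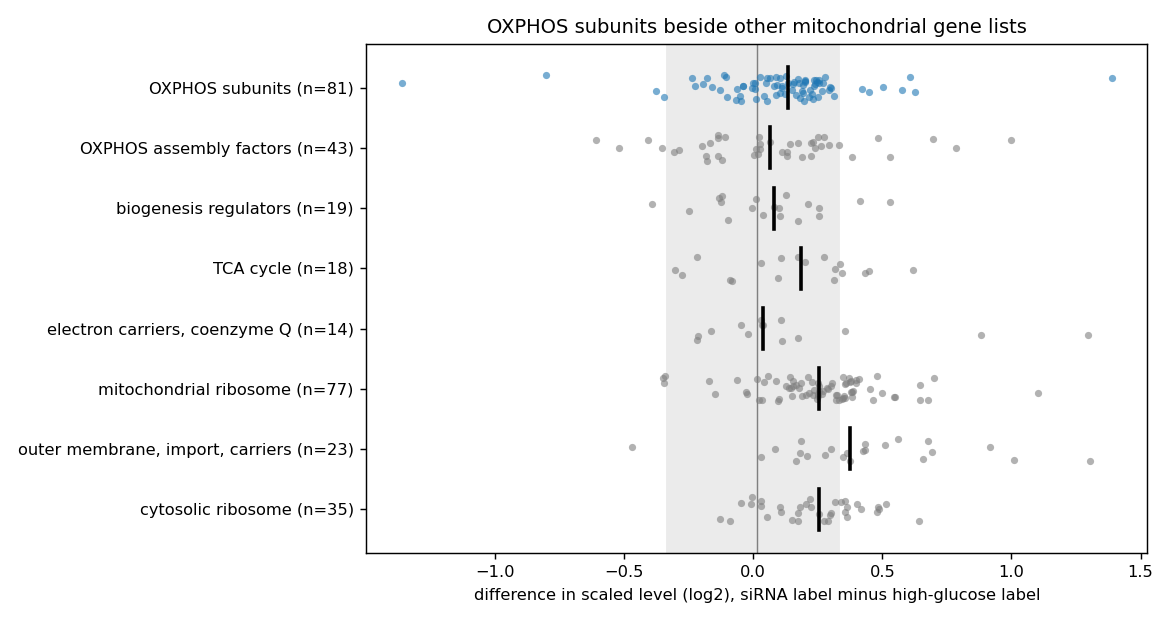
Differences (log2, horizontal axis) between the siRNA label and the high-glucose label for each measured gene of the subunit set and of 7 other lists, as points with a black bar at the median of each list. The grey band holds all measured genes between their quartiles, -0.33 to 0.33, with a line at their median. The bars of import, mitochondrial ribosome and cytosolic ribosome genes lie at 0.38, 0.25 and 0.26.

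Markers of cell types and of dividing cells also differed between the siRNA-labelled and high-glucose-labelled arrays. Over all measured genes 13.8% were at least 1.5-fold higher in this comparison and 14.7% lower. By list these shares were 10% and 60% for fibroblast, 14.3% and 57.1% for smooth muscle and pericyte, and 20% and 60% for macrophage markers. They were 42.9% and 14.3% for endothelial markers and 100% and 0% for proliferation genes. The lists are short, so 1 gene is a large share of each. Summed signals, as multiples of the 75th percentile, were 367 on the siRNA-labelled array, 531 on the high-glucose-labelled array and 523 on the normal-glucose-labelled array for 10 fibroblast markers, of which 1 was at least 1.5-fold higher and 6 lower on the siRNA-labelled array than on the high-glucose-labelled array. They were 29.2, 56.1 and 55.2 for the 7 of 9 smooth muscle and pericyte markers that were measured, with 1 higher and 4 lower, and 10.3, 5.93 and 6.05 for 5 of 6 macrophage markers, with 1 higher and 3 lower. Cd14 carried most of the macrophage sum on the siRNA-labelled array, and without it the other 4 summed to 2.04, 3.05 and 3.00. All 6 proliferation genes were higher, with a median of 2.16 and sums of 52.3, 15.9 and 16.3. Of 12 endothelial markers 7 were measured, with sums of 7.74, 6.50 and 6.46, and 3 were higher (Cdh5 by 1.51, Esam by 1.15 and Egfl7 by 0.67) and 1 lower (Vwf, -1.26). Pecam1, Kdr and Nos3 were at -0.31, -0.05 and 0.12. Kdr was the brightest of the list, and without it the sums were 3.65, 2.27 and 2.28. Cdh5, Esam, Pecam1 and Vwf were dim, with signals of 185, 126, 76.5 and 66.2 on the high-glucose-labelled array. Vwf had a signal of 32.3 on the siRNA-labelled array. Tie1, Erg and Emcn were not well above background on any array, and Tek and Cldn5 not on all 3. Of 6 markers of skeletal or cardiac muscle 5 (Ckm, Actn2, Mb, Tnnt2 and Myog) were not well above background on any array, and Myh7 was at 0.16. These marker levels thus differed in the same comparison in which Cox6a2, Cox7a1, Cox8b and Cox6b2 differed, and their part in the result was not tested.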

How the data were processed

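Total RNA of each group was pooled and hybridised to 1 of 3 one-colour (Cy3) Agilent arrays of 1 slide, per the labels. Per the file headers, Agilent Feature Extraction 11.0.1.1 produced the deposited spot intensity, background-subtracted and on a linear scale, with flags for outlier spots and for signal well above background. The deposited value table, also intensity, gave the same counts of members past 1.5-fold and was an alternative. Outlier spots were left out, log2 signals of repeated spots were averaged per probe and scaled by subtracting the 75th percentile of all probes on that array. A probe was above background where at least 50% of its spots were. Probes were named by accession through the RefSeq table of GRCm38.p6, which named 26055 of 39429 (66.1%). A gene was read from its brightest probe above background on all 3 arrays.

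Differences are given as values with a 1.5-fold threshold, since each group holds 1 array, whose number limits the precision. Fold counts over all genes stand beside counts of members. Members of each complex named in the text are the 3 highest and 3 lowest of it, plus isoform pairs, members past 1.5-fold, the 2 at either end between high and normal glucose, and those whose probes disagreed in sign by over 0.3. One member that this rule names is not reported here. Ndufs1, Ndufs8, Cox5a, Cox5b, Cox6c, Cox7c and Atp5b were named after their values were seen. The members and lists were chosen with earlier results of these data known. Alternatives were quantile normalization and cyclic loess (limma 3.58.1 in R 4.3.3), scaling each array by the median of its probes above background, and normexp with an offset of 50 on median signals. Other probe rules and thresholds, and the exchange of the high-glucose arrays, were alternatives too. The steps were tested on simulated data. Python 3.11.15 with pandas 2.3.3 and numpy 2.4.6 was used. Directions are those of the labels.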

Additional observations from a re-analysis of the deposited data

How the results depend on the processing

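With 1 array a group, no array could be left out, and the number of arrays limits every value. No paired analysis was possible because each group holds 1 array. Symbols printed in the scanner files were not used, since the files given hold no such column.
The small shift of the subunit genes depended on scaling, and its cause was not tested. With quantile normalization the median difference of siRNA against high glucose was -0.017 for all members, and by complex -0.037 (I), -0.12 (II), 0.062 (III), -0.010 (IV) and 0.041 (V), and against normal glucose it was -0.036 for all, -0.097 (II), 0.012 (III), -0.034 (IV) and -0.012 (V), with 2 members higher. With cyclic loess these were -0.0033 for all, -0.045 (I), -0.14 (II), 0.044 (III), -0.016 (IV) and 0.051 (V) against high glucose, and -0.026 for all, -0.080 (I), -0.11 (II), 0.010 (III), -0.038 (IV) and 0.015 (V) against normal glucose, with 2 higher. Against normal glucose 2 members were also higher with arrays scaled by the median of their probes above background, with normexp and with the mean over probes of a gene. The shares of all genes were 13.5%, 10.1% and 12.9% in the same order, and 13.3% and 12.8% with quantile normalization and cyclic loess. At the lower of the other thresholds, which is under 1.5-fold, 7 members (8.64%) were higher and 4 (4.94%) lower against high glucose. These shares were below those of all genes, 25.7% and 25.6%. The counts against normal glucose were again 7 and 4, beside 24.6% and 25.4% of all genes. At 2-fold 1 was higher and 1 lower against high glucose, beside 5.97% and 7.14%, and 1 lower against normal glucose, beside 7.02%. Among members in the brightest 25%, an alternative chosen after seeing the data, 1 was at least 1.5-fold higher and 0 lower against high glucose. The shares of all genes as bright were 9.69% and 9.94%. Against normal glucose there were 0 and 0, beside 8.33% and 10.4%.
Exchanging the 2 high-glucose arrays turns siRNA against high glucose by construction, to -0.14 for all, -0.10 (I), -0.15 (III), -0.10 (IV) and -0.19 (V), with Cox6a2 -1.39, Cox7a1 -0.62, Ndufb8 -0.61, Cox6b2 0.80 and Cox8b 1.36. High glucose against normal glucose becomes 0.10 for all, 0.12 (III), 0.10 (IV) and 0.15 (V). In it 1 member is higher and 2 are lower, beside 13.2% and 14.7% of all genes. The siRNA label against normal glucose becomes -0.046 for all, -0.040 (III), -0.022 (IV) and -0.027 (V), with Cox6a2 at -0.049. There 0 members are higher and 0 lower, beside 0.592% and 0.48% of all genes.
Apart from that exchange, Cox6a2, Cox6b2 and Cox8b stayed past 1.5-fold in the first comparison under every setting in which they were kept. Ndufb8 fell short of it with quantile normalization, cyclic loess and normexp, and Cox7a1 with normexp. Uqcrq passed it with normexp, with the mean over probes of a gene, and with arrays scaled by the median of their probes above background. Single members named by the rule had 954 values over these settings and the 3 comparisons. Of these, 114 moved by at least the spot error of 0.08, 42 with quantile normalization and 56 with cyclic loess.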

Other observations

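Cytosolic ribosomal proteins are a group outside the mitochondrion. On the siRNA-labelled array against the high-glucose one, 1 of 35 measured genes (2.86%) was at least 1.5-fold higher and 0 lower, beside 13.8% and 14.7% of all genes, with a median of 0.26. Their median was as low as 0.05 with other scalings. Among regulators, Myc was at 0.53, Pprc1 at -0.39 and Gabpb1 at 0.25. Among TCA cycle genes Dlst, Pdhb and Fh1 were at 0.45, 0.43 and 0.34. Tomm20, an import receptor of the outer membrane, was at 0.69.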
